A study of Homo sapiens with 6 samples.

Results

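The clustered protocadherins are cell-surface proteins of the cadherin superfamily whose genes lie in 3 neighbouring arrays, the alpha (PCDHA), beta (PCDHB) and gamma (PCDHG) clusters. Their expression was described in H1, an established human embryonic stem cell line. Members were the protein-coding genes whose symbol starts with PCDHA, PCDHB or PCDHG followed by a number, A, B or C, with pseudogenes left out. The rule found 53 members among the 60499 genes listed: 15 in the alpha, 16 in the beta and 22 in the gamma cluster. All 53 lie on the plus strand of chromosome 5 (GRCh38, GENCODE 29), the alpha cluster at chr5:140786136-141012347, the beta cluster at chr5:141051135-141249365 and the gamma cluster at chr5:141330571-141512981.

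The cells grew on 1 of 2 coatings of laminin, a protein of basement membranes. For 3 wells the coating was LN-521 (laminin-521 alone), and for another 3 wells it was LN-521+LN-221, a mix to which laminin-221 had been added. All 6 wells received Nutristem medium, renewed each day over 4 days, and RNA was taken at confluence. The wells carry replicate numbers 1 to 3 in each group but belong to a single cell line, so p-values measure the spread between wells. The comparison asks what the addition of laminin-221 does to expression in these undifferentiated cells.

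Clustered protocadherins are best known from the nervous system, where each neuron displays its own combination and the proteins bind identical partners on facing membranes, a code used to tell self from non-self. In the alpha and gamma clusters each gene is a variable first exon with its own promoter, which encodes the extracellular, transmembrane and proximal cytoplasmic parts. It is spliced to constant exons shared by the whole cluster, which encode a common cytoplasmic end. Beta genes have a single coding exon and no constant exons. Promoters are chosen one by one through CTCF and cohesin, and DNA methylation by DNMT3B and the silencing protein SMCHD1 hold many of them off. The C-type genes (PCDHAC1, PCDHAC2, PCDHGC3, PCDHGC4 and PCDHGC5) stand at the ends of the alpha and gamma clusters and are under separate control from the other, alternate genes.

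Libraries held 20606494 to 26836726 estimated counts. Of 10 embryonic stem cell markers, all passed the filter on low counts. Their summed level was 3028 to 3419 TPM (a level per transcript length, with equal library totals) on LN-521 alone and 2948 to 3182 TPM on the mix. At an adjusted p under 0.05 edgeR called 4 of the 10, LIN28A higher and POU5F1, NANOG and TDGF1 lower on the mix. DESeq2 also called 4. Over all genes tested, the background for each marker list here, edgeR called 2.53% (1.4% higher and 1.14% lower). Of 8 neural progenitor markers, 7 (all but NES) were under 1 TPM in every library, and the list summed to 57.6 to 66.2 TPM on LN-521 alone and 64.7 to 65.5 TPM on the mix. The 8 neuronal markers, led by the tubulin gene TUBB3, summed to 126 to 135 TPM on LN-521 alone and to 142 to 144 TPM on the mix, without overlap. Of these 8, edgeR called STMN2 higher and DCX lower (adjusted p = 0.0492 for DCX), and DESeq2 called 1. The 5 mesendoderm markers were all under 1 TPM and summed to 0.25 to 0.60 TPM on LN-521 alone and 0.61 to 1.11 TPM on the mix. The 5 endoderm markers, 4 of them under 1 TPM in every library, summed to 0.92 to 2.07 TPM and 0.55 to 1.61 TPM. The 7 stromal markers summed to 128 to 141 TPM and 116 to 143 TPM, with THY1 called lower by edgeR (DESeq2 called 2 of the list) and LUM at 0 in every library. The part of these marker differences in the protocadherin values was not tested. In bulk samples, fewer cells of a type and less RNA per cell cannot be told apart.

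The promoters of the clusters carry short sequence elements, shown here because they are what many members share near the RefSeq starts of their different first exons. Windows of 300 bases, from 250 before to 50 after each start, came from RefSeq (GRCh38.p14) and matched 47 of the 53 members. For 34 of these the nearest RefSeq start lay within 50 bases of the GENCODE 29 gene start. For 5 (PCDHA9, PCDHA11, PCDHB14, PCDHB16 and PCDHGA8) the whole window lay inside the gene as GENCODE 29 draws it, starting 411 to 2476 bases earlier than in RefSeq. Both strands were searched. CGCT is the core of the element at which CTCF is known to bind many of these promoters. It was in the windows of 12 of 13 alpha, 14 of 14 beta and 20 of 20 gamma members. As 70.0% of all 35116 windows in the genome hold it too, these letters alone do not show that a window has the element. In PCDHA9, these letters are not in the window. For each cluster, the string of 9 bases around the core held by the largest number of its members was then found. It was chosen on the members, so its count there is a description. Each sequence below is a stretch of 36 bases of the plus strand, 5′ to 3′, with the CGCT core in capitals.

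In the alpha cluster the string was GATGTCGCT, in the windows of 9 of 13 members, of no beta or gamma member and in 0.105% of all windows. Of the 5 members shown, PCDHA6, PCDHA8 and PCDHA12 carry it, and PCDHA11 and PCDHAC1, the most abundant ones, hold the core with other letters before it.
PCDHA6, chr5:140827895-140827930: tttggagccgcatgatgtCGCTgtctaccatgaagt
PCDHA8, chr5:140841128-140841163: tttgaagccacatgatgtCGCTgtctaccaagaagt
PCDHA12, chr5:140875242-140875277: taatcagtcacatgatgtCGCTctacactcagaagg
PCDHA11, chr5:140868881-140868916: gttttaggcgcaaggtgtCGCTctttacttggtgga
PCDHAC1, chr5:140926218-140926253: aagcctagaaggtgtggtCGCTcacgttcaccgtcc

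In the beta cluster it was GGTGGCGCT, in the windows of 13 of 14 members, of no alpha or gamma member and in 0.501% of all windows. The member without it was PCDHB1, which stands apart from the other beta genes at the start of the cluster. The 4 stretches shown belong to the 3 most abundant beta members and to PCDHB9.
PCDHB2, chr5:141094542-141094577: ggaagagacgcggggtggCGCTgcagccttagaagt
PCDHB5, chr5:141135177-141135212: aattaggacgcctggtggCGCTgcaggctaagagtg
PCDHB9, chr5:141187072-141187107: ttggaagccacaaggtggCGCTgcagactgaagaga
PCDHB15, chr5:141245312-141245347: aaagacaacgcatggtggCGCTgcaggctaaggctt

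In the gamma cluster it was GCGCCGCTG, in the windows of 10 of 20 members, of no alpha or beta member and in 1.28% of all windows. Of the members shown, PCDHGA7, PCDHGA11 and PCDHGB4 carry it, and PCDHGA2 and the C-type PCDHGC3 and PCDHGC4 hold the letters CGCT with others around them. All 3 strings contain the core. These matches describe the sequence and locate no bound site.
PCDHGA2, chr5:141338701-141338736: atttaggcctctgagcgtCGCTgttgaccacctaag
PCDHGA7, chr5:141382647-141382682: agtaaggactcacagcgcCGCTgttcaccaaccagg
PCDHGA11, chr5:141420970-141421005: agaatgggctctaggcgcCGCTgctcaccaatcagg
PCDHGB4, chr5:141387615-141387650: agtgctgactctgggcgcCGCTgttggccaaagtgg
PCDHGC3, chr5:141475878-141475913: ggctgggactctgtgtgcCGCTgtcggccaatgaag
PCDHGC4, chr5:141484950-141484985: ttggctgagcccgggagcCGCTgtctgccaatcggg

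The 3 clusters were expressed at low and uneven levels, described here in TPM. Together the 53 members made up 54.7 to 67.4 TPM in a library. Mean levels over the 6 libraries ran from 0.0283 TPM for PCDHB1 to 7.63 TPM for PCDHB5, with 20 members at 1 TPM or more and 33 below. The plot of TPM in each library shows a few genes standing out of each array.

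**Figure D1:**
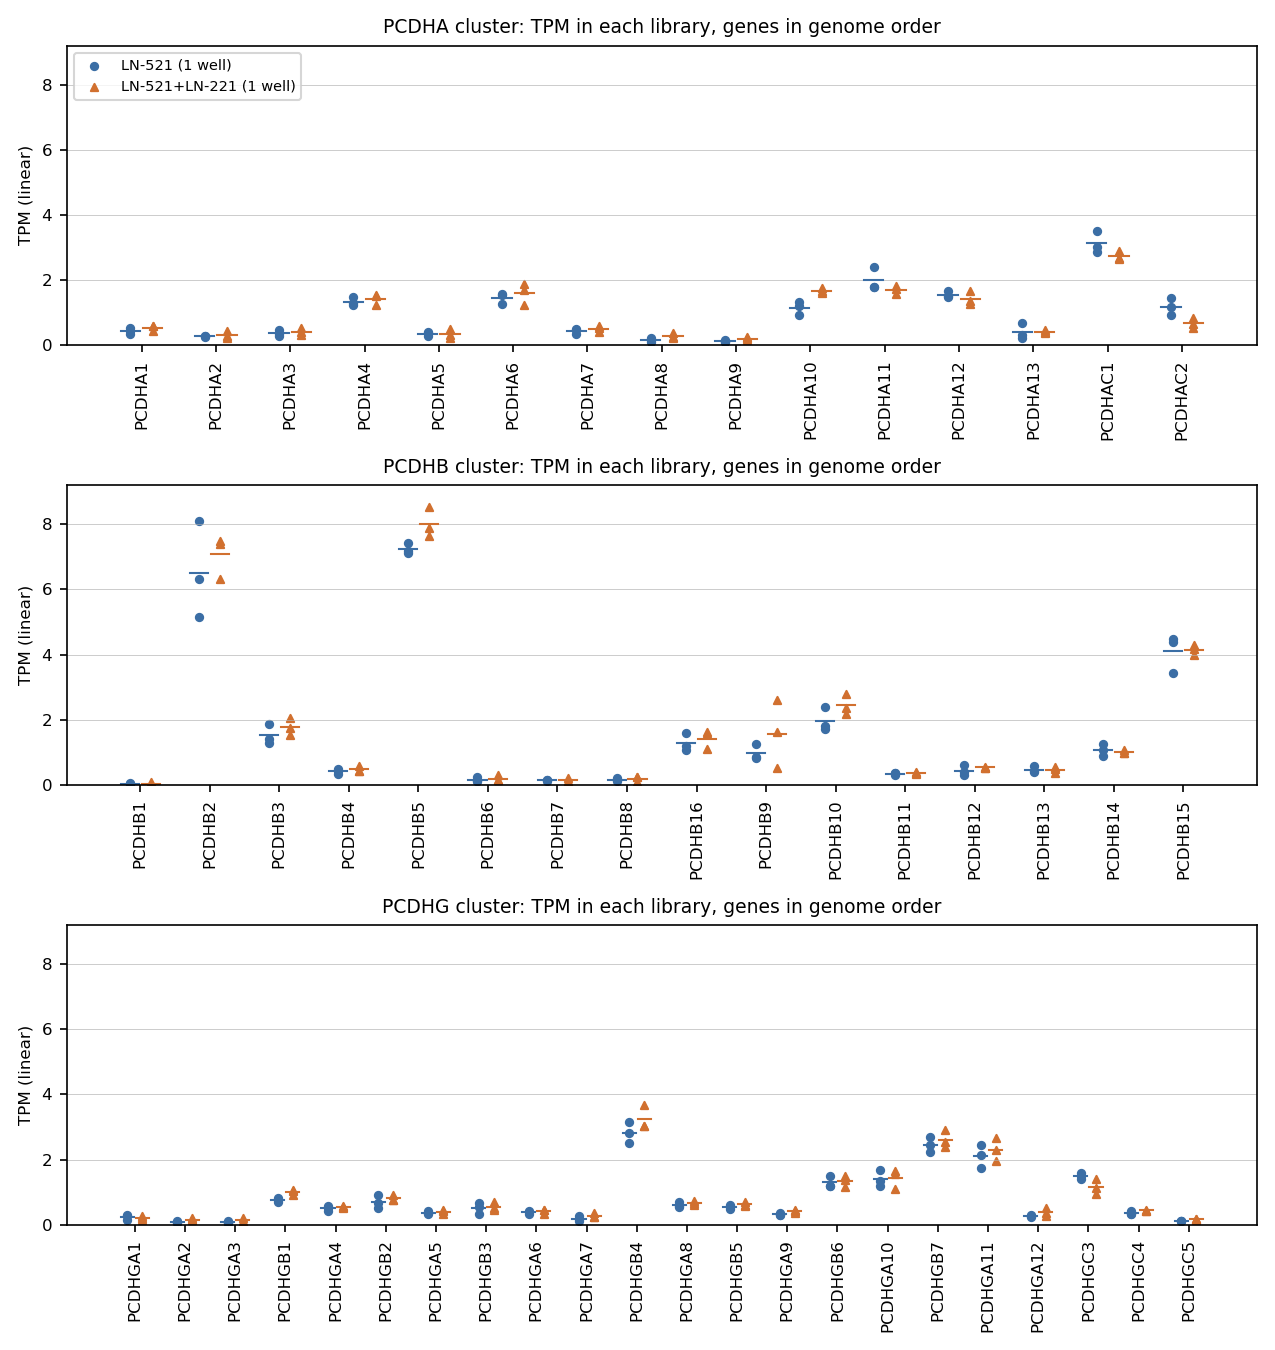
TPM (linear axis) of the 53 clustered protocadherins in each of the 6 libraries, by cluster and in genome order. Circles are wells on LN-521 alone, triangles wells on the mix (LN-521+LN-221), and each horizontal line is the mean of 3 wells. By their mean over the 6 libraries PCDHB5, PCDHB2 and PCDHB15 lie above every other member, and 33 members average under 1 TPM.

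In the alpha cluster the most abundant member in all 6 libraries was PCDHAC1, the first of the C-type pair. Its levels were 2.86, 3.01 and 3.5 TPM on LN-521 alone and 2.66, 2.64 and 2.87 TPM on the mix. It took 17.9% to 25.9% of the alpha cluster's TPM, with a median of 20.1%. PCDHAC1 stood above the other alpha genes in each well. PCDHA11, next by mean level, had 2.40, 1.77 and 1.79 TPM on LN-521 alone and 1.72, 1.57 and 1.81 TPM on the mix. PCDHA6 had 1.52, 1.57 and 1.26 TPM on LN-521 alone and 1.68, 1.24 and 1.86 TPM on the mix. The 2 groups overlapped for all 3 genes. These 3 genes made up 40.9% to 48.4% of the cluster's TPM. PCDHAC2, the second C-type member and the one nearest the constant exons, had a mean of 0.917 TPM. At the low end were PCDHA9, with a mean of 0.153 TPM, and PCDHA8, with 0.208 TPM.

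The beta cluster had the highest summed level, 24.3 to 31.6 TPM in a library, against 13.2 to 15.6 TPM in the alpha and 15.9 to 20.98 TPM in the gamma cluster. PCDHB5 had 7.42, 7.17 and 7.13 TPM on LN-521 alone and 7.90, 8.53 and 7.63 TPM on the mix. PCDHB2 had 8.09, 6.33 and 5.14 TPM on LN-521 alone and 7.50, 6.33 and 7.40 TPM on the mix. PCDHB2 held the first place in LN-521 replicate 1 and PCDHB5 in every other library, and the ranges of the 2 genes overlapped. Between the coatings the TPM values were apart for PCDHB5 and overlapped for PCDHB2. PCDHB15, the last gene of the array, came next in every library, with 4.39, 4.47 and 3.43 TPM on LN-521 alone and 4.28, 4.18 and 3.99 TPM on the mix. Together the 3 genes made up 62.3% to 69.9% of the beta cluster's TPM, against 40.7% to 44.0% for the top 3 members of the gamma cluster. PCDHB1 had 1 to 14 estimated counts in a library.

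In the gamma cluster the order of the first 3 places was the same in all 6 libraries. PCDHGB4 led with 3.14, 2.5 and 2.81 TPM on LN-521 alone and 3.69, 3.04 and 3.03 TPM on the mix. PCDHGB7 came second with 2.68, 2.23 and 2.45 TPM on LN-521 alone and 2.90, 2.39 and 2.53 TPM on the mix. PCDHGA11 followed with 2.46, 1.74 and 2.13 TPM on LN-521 alone and 2.65, 2.30 and 1.97 TPM on the mix. Genes beside them could be far lower: PCDHGA7, which lies just before PCDHGB4, had a mean of 0.220 TPM. Among the gamma C-type genes, PCDHGC3, which is known to be expressed outside the nervous system too, had 1.59, 1.39 and 1.5 TPM on LN-521 alone and 1.39, 0.94 and 1.12 TPM on the mix. PCDHGC4, known for its role in neuron survival, had a mean of 0.397 TPM. PCDHGC5, known mainly from neurons, had a mean of 0.140 TPM. The lowest gamma member was PCDHGA3, with 0.103 TPM.

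The constant exons belong to every alpha or every gamma gene, so a read from them does not name its gene. In GENCODE 29, 2866 exonic bases were common to all 15 alpha genes and 2181 to all 22 gamma genes, while no base was common to all beta genes. A stretch of 150 bases, the read length, taken from a member's longest coding transcript also occurred in another member for a median of 53.3% of stretches in the alpha cluster and 45.5% in the gamma cluster. In the beta cluster the median was 3.01%, with a maximum of 17.96% in PCDHB10. A program that divides such reads between genes gives counts with decimals.

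The deposited counts of the members held many decimals. Of the 318 member values, all above 0, 81.4% were further than 0.001 from a whole number, against 12.7% of values in the other tested protein-coding genes. The share was 87.8% in the alpha, 86.5% in the beta and 73.5% in the gamma cluster. PCDHAC2, for example, had 120.32, 150.43 and 141.93 counts on LN-521. Counts were not whole in all 6 libraries for 32 members and whole in all 6 for 3 members, PCDHB1, PCDHGA9 and PCDHGA12. Summed over a cluster, the decimals nearly cancelled in the gamma genes: their total lay within 0.03 of a whole number in every library, for example at 1973.0 and 2193.99 counts in LN-521 replicates 1 and 2. The alpha totals lay up to 0.37 and the beta totals up to 0.31 from a whole number. PCDHB1, PCDHB10, PCDHGA3, PCDHGA9 and PCDHGA12 were named after their values were seen.

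Cluster sums avoid part of this division of reads, so the coatings were first compared on summed CPM, estimated counts divided by library sizes scaled with edgeR's TMM factors. The beta sum was 112.2, 106.0 and 104.4 CPM on LN-521 alone and 118.1, 120.6 and 115.2 CPM on the mix, a log2 ratio of means of 0.13. The gamma sum was 85.9, 82.5 and 79.3 CPM on LN-521 alone and 91.1, 87.4 and 88.1 CPM on the mix, a log2 ratio of 0.11. In both clusters every well on the mix lay above every well on LN-521 alone. The alpha sum was 74.4, 75.1 and 72.0 CPM on LN-521 alone and 74.3, 66.7 and 72.2 CPM on the mix, a log2 ratio of -0.06 with overlapping groups. No test was made on sums. In TPM the sums of the groups overlapped in all 3 clusters, with log2 ratios of -0.01, 0.15 and 0.14 for alpha, beta and gamma.

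Within the alpha cluster the C-type pair and the alternate genes lay on opposite sides of equality. PCDHAC1 and PCDHAC2 together had 20.8, 24.6 and 26.9 CPM on LN-521 alone and 18.05, 16.8 and 20.3 CPM on the mix, a log2 ratio of -0.39 with no overlap. PCDHA1 to PCDHA13 had 53.6, 50.6 and 45.2 CPM on LN-521 alone and 56.3, 49.9 and 51.8 CPM on the mix, a log2 ratio of 0.08 with overlap. In CPM every well on the mix thus lay below every LN-521 well for the C-type pair, and not for the alternate genes. The gamma C-type genes PCDHGC3 to PCDHGC5 summed to 7.82, 7.57 and 6.55 CPM on LN-521 alone and to 7.60, 7.005 and 6.82 CPM on the mix, a log2 ratio of -0.03 with overlap, and of -0.16 in TPM. In CPM the sums of the 7 PCDHGB genes lay close together within each group, at 43.7, 43.1 and 42.7 CPM on LN-521 alone and 47.8, 46.7 and 46.8 CPM on the mix, a log2 ratio of 0.13 with no overlap. In TPM the PCDHGB sums ran from 8.04 to 10.17 on LN-521 alone and from 9.66 to 11.17 on the mix, which overlap. The 12 PCDHGA genes summed to 34.4, 31.9 and 30.0 CPM on LN-521 alone and 35.7, 33.7 and 34.5 CPM on the mix, which overlap.

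**Figure D2:**
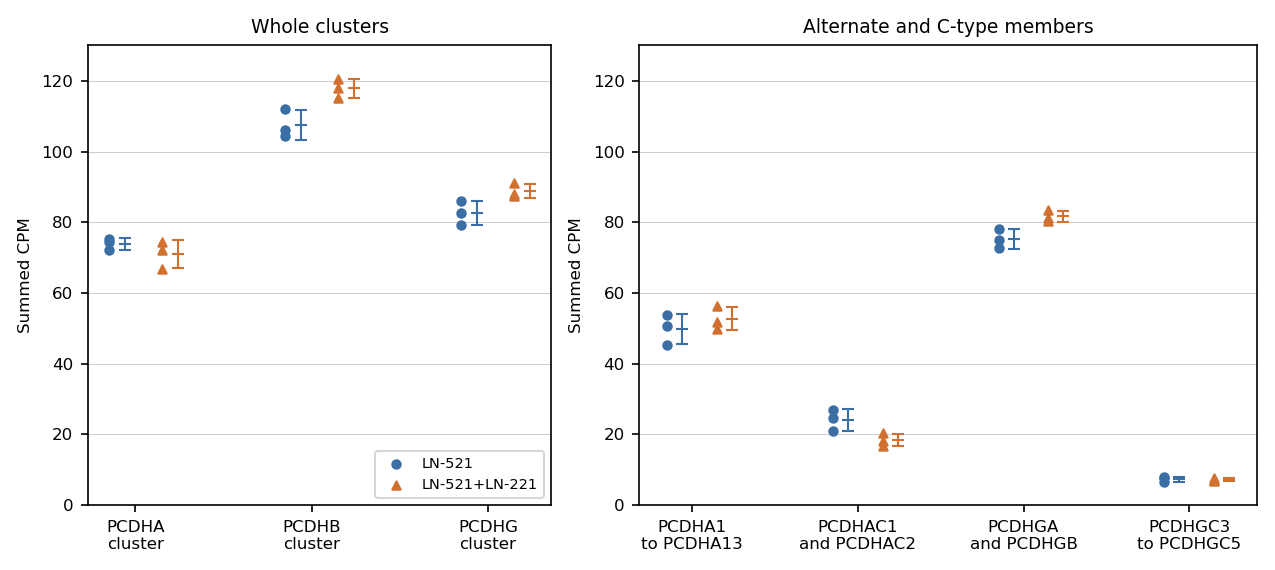
Summed CPM (linear axis from 0) of the 3 clusters and of their alternate and C-type genes in each library, with the mean ± SD of 3 wells beside the points. Circles are wells on LN-521 alone and triangles wells on the mix (LN-521+LN-221). The beta and gamma sums on the mix lie above all LN-521 wells, and the sum of PCDHAC1 and PCDHAC2 lies below them.

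For single genes, edgeR's quasi-likelihood test was run over 17608 genes, 51 of them clustered protocadherins. The filter left out PCDHB1, and PCDHGA3 with 3.29 to 15.44 counts. Of the 51 members, 1 was called at an adjusted p under 0.05, PCDHAC2, which fell. This is 1.96% of the members, against 2.53% of all genes tested (246 higher, 1.4%, and 200 lower, 1.14%). At an unadjusted p under 0.05 there were 8 of 51 members (15.7%), 5 higher (PCDHA9, PCDHA10, PCDHGA2, PCDHGA7 and PCDHGB1) and 3 lower (PCDHAC1, PCDHAC2 and PCDHA12), against 14.5% of all genes, 7.05% higher and 7.49% lower. CPM values of the groups did not overlap for 10 members (19.6%), 9 higher and 1 lower on the mix, against 19.9% of all genes, 10.2% higher and 9.68% lower. In total, each of these 3 shares was near the background. By direction, the non-overlapping members lay mostly on the higher side and those of all genes about evenly on both, a split that was not tested.

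The signs of the differences were less even than in the whole table. The fitted log2 fold change, the mix relative to LN-521 alone, was above 0 in 37 of 51 members (72.5%) and in 49.7% of all genes. Its median was 0.15 over the members and -0.001 over all genes, and the median standard error (SE) was 0.21 and 0.10. The members' median was 0.08 without LN-521 replicate 3 and 0.06 with limma on log2(TPM + 1). In that limma fit the median over all genes was 0.03, and 80.8% of members and 58.5% of all genes were above 0. By cluster, 10 of 15 alpha genes were above 0 with a median of 0.11, 12 of 15 beta genes with a median of 0.18, and 15 of 21 gamma genes with a median of 0.10. Alpha genes, and gamma genes, share their constant exons, so the differences within a cluster are not independent of each other.

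**Figure D3:**
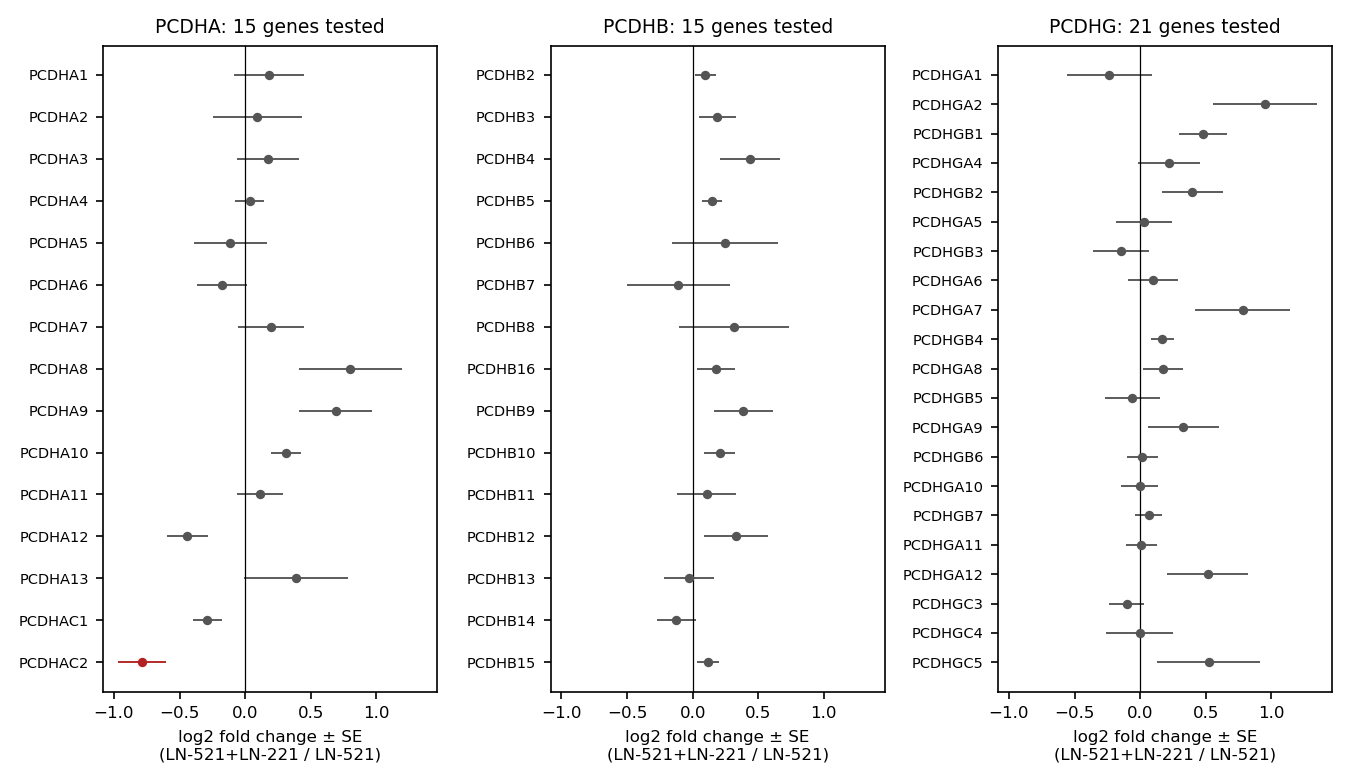
Log2 fold change (LN-521+LN-221 over LN-521 alone) ± SE from edgeR for the 51 members tested, by cluster and in genome order. The vertical line marks no difference. PCDHAC2 (red) is the 1 member with an adjusted p under 0.05, and 37 of the 51 points lie to the right of the line.

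PCDHAC2 (ENSG00000243232, chr5:140966235-141012344, plus strand), whose protein is known to be needed for the spacing of serotonin-releasing axons in mice, was lower on the mix. Estimated counts were 120.32, 150.43 and 141.93 on LN-521 alone and 78.92, 47.77 and 87.21 on the mix. In CPM this was 5.23, 5.64 and 5.70 against 3.804, 2.15 and 3.67. The groups did not overlap, and replicate 2 on the mix was the lowest well. The log2 fold change was -0.78 ± 0.18 (SE, n = 3 per group, edgeR quasi-likelihood adjusted p = 0.0263), a level 0.581 times that on LN-521. As a share of the alpha cluster's counts, PCDHAC2 had 7.49% ± 0.434 (SD, n = 3) on LN-521 alone and 4.48% ± 1.10 (SD, n = 3) on the mix. No well of one group reached the other in this share. TPM values were 1.44, 0.91 and 1.16 on LN-521 alone and 0.65, 0.51 and 0.83 on the mix, also without overlap. The call was lost without LN-521 replicate 3 (edgeR adjusted p = 0.127), without LN-521+LN-221 replicate 2 (log2 fold change -0.56, adjusted p = 0.166) or without LN-521+LN-221 replicate 3 (adjusted p = 0.0554). It was also lost with limma on log2 TPM (adjusted p from 0.490 to 0.597). Limma called 11 genes or fewer in the whole table, so this loss says little about PCDHAC2 itself. The gene AC010223.1 overlaps a PCDHAC2 exon on the other strand and had 0 counts in every library.

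The RefSeq promoter window of PCDHAC2 is shown whole because it belongs to the 1 member called. GENCODE 29 starts this gene 241 bases before the RefSeq start, so that 291 of the 300 bases lie inside the gene by that annotation. It holds CGCT 3 times on the plus strand and once on the minus strand, written AGCG (capitals), and none of the 3 strings of 9 bases. The window is the RefSeq (GRCh38.p14) plus strand, 5′ to 3′.
PCDHAC2, chr5:140966226-140966525: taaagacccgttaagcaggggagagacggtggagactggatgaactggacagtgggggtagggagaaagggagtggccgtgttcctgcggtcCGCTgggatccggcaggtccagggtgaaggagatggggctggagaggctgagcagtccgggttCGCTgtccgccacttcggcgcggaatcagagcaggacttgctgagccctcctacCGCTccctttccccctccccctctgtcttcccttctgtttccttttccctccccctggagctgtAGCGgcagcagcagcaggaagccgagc

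The other C-type genes were not called. PCDHAC1 had 15.6, 18.9 and 21.2 CPM on LN-521 alone and 14.3, 14.6 and 16.6 CPM on the mix, so that 1 well of each group lay within the range of the other. Its log2 fold change was -0.29 ± 0.11 (edgeR adjusted p = 0.218). Without LN-521 replicate 1, its lowest LN-521 well, it was -0.40 (adjusted p = 0.0136), and without LN-521 replicate 3, its highest, it was -0.19 (adjusted p = 0.616). PCDHGC3 had 5.84, 5.23 and 5.06 CPM on LN-521 alone and 5.35, 4.80 and 4.86 CPM on the mix, overlapping, with a log2 fold change of -0.10 ± 0.14 (adjusted p = 0.795). The log2 difference was -0.22 to -0.36 with limma on TPM (adjusted p = 0.711 to 0.751) and -0.04 without LN-521 replicate 1. For PCDHGC4 the edgeR log2 fold change was -0.003 ± 0.25 (adjusted p = 0.997). In TPM its groups were just apart, at 0.32 to 0.41 on LN-521 alone and 0.42 to 0.46 on the mix. With limma on TPM its difference was above 0, up to 0.24, and not called. PCDHGC5, with 7 to 16.81 counts in a library, had 0.52 ± 0.39 (edgeR adjusted p = 0.595), and 0.29 to 0.79 with a library left out. The groups of PCDHGC5 overlapped in CPM and were apart in TPM.

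Among the alternate alpha genes the largest fitted differences were in PCDHA8 and PCDHA9, 2 of the least expressed. PCDHA8 had 0.610, 0.263 and 0.482 CPM on LN-521 alone and 1.01, 0.583 and 0.760 CPM on the mix, overlapping in 1 well, and a log2 fold change of 0.80 ± 0.39 (edgeR adjusted p = 0.362), or 0.52 without LN-521 replicate 2. PCDHA9 had 1.18, 0.827 and 0.803 CPM on LN-521 alone and 1.78, 1.57 and 1.18 CPM on the mix, just apart, with 0.69 ± 0.28 (adjusted p = 0.250). In TPM the groups of PCDHA9 overlapped. Over all alternative fits, limma on TPM among them, the lowest values were 0.13 for PCDHA8 and 0.09 for PCDHA9. PCDHA11 and PCDHA6, the most abundant alternate genes by mean TPM, had 0.11 ± 0.17 and -0.17 ± 0.19 (adjusted p = 0.825 and 0.746). For both, the sign turned with limma on TPM, with log2 differences of -0.14 to -0.20 for PCDHA11 and 0.08 to 0.12 for PCDHA6. In PCDHA6 the count and TPM scales parted: on the mix its counts were 110.59, 92.94 and 192.47 while its TPM values were 1.68, 1.24 and 1.86.

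PCDHA12 and PCDHA10, named after their values were seen, had unadjusted p-values under 0.05 in opposite directions. PCDHA12 had 5.49, 7.14 and 7.22 CPM on LN-521 alone and 4.48, 5.83 and 4.35 CPM on the mix, a log2 fold change of -0.44 ± 0.15 (edgeR adjusted p = 0.174). Its antisense neighbour AC005609.3, which overlaps it, had 17.68 to 23.89 counts on LN-521 alone and 15 to 16.73 on the mix, and without knowing whether strand was used, reads of the 2 genes there cannot be told apart. PCDHA10 had 13.6, 12.7 and 9.67 CPM on LN-521 alone and 15.5, 14.6 and 14.5 CPM on the mix, a log2 fold change of 0.31 ± 0.11 (adjusted p = 0.201). The groups overlapped for PCDHA12 and were apart for PCDHA10. The pseudogene PCDHA14, which overlaps PCDHA10 on the same strand, had 0 to 6.92 counts. AC005609.4, which overlaps PCDHA10 on the other strand, had 13, 7 and 7 counts on LN-521 alone and 4, 3 and 5 on the mix, also apart and with the lower group on the mix. PCDHA10 and PCDHA12 passed the threshold when LN-521 replicate 1 was left out, a fit that called these genes, PCDHAC1 and PCDHAC2 among the members (4 in all) and 6.54% of all genes.

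**Figure D4:**
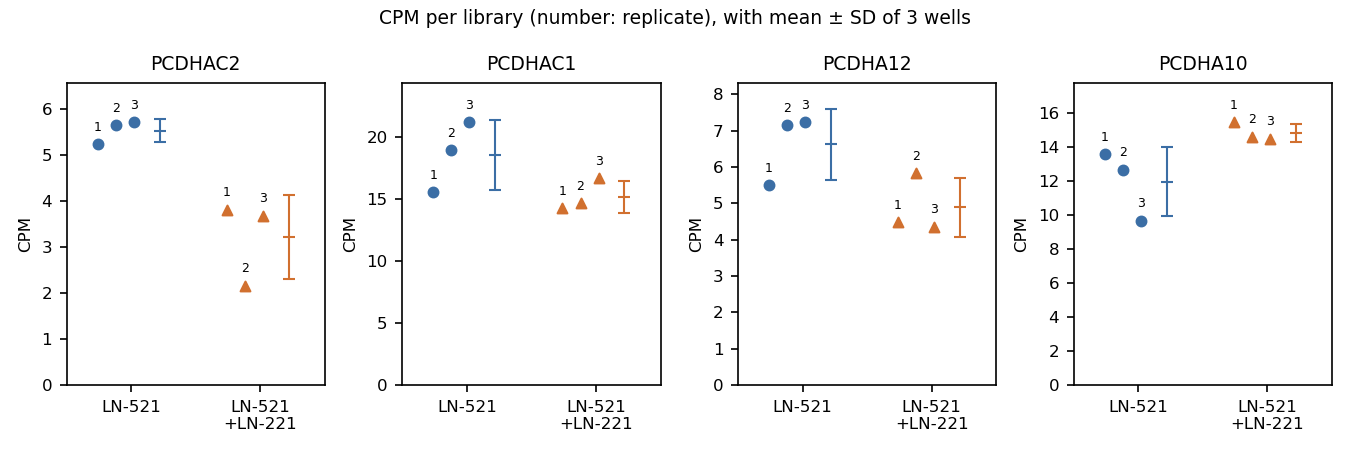
CPM (linear axes from 0, a separate scale for each gene) of PCDHAC2, PCDHAC1, PCDHA12 and PCDHA10 in each library, numbered by replicate, with the mean ± SD of 3 wells. The wells on the mix lie below all LN-521 wells for PCDHAC2 and above them for PCDHA10, and the groups overlap for PCDHAC1 and PCDHA12.

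No beta gene was called by edgeR or DESeq2, and with each tool 0 of 15 had an unadjusted p under 0.05, against (in edgeR) 14.5% of all genes. PCDHB5 had 27.6, 29.3 and 29.9 CPM on LN-521 alone and 30.1, 34.1 and 31.7 CPM on the mix, apart by a narrow gap, with a log2 fold change of 0.15 ± 0.08 (edgeR adjusted p = 0.406). PCDHB15 had 18.1, 19.2 and 17.1 CPM on LN-521 alone and 19.5, 19.9 and 19.7 CPM on the mix, also apart, with 0.12 ± 0.08 (adjusted p = 0.572). In TPM the groups of PCDHB15 overlapped, and leaving out 1 library gave log2 fold changes of 0.08 to 0.17. For PCDHB2 the groups overlapped, with 0.10 ± 0.08 (adjusted p = 0.644), and 0.03 (without LN-521 replicate 3) to 0.16 (without LN-521 replicate 1) with a library left out. The largest fitted differences in this cluster were 0.43 ± 0.23 in PCDHB4 (adjusted p = 0.412), 0.39 ± 0.22 in PCDHB9 (adjusted p = 0.467) and 0.33 ± 0.25 in PCDHB12 (adjusted p = 0.585). With a library left out, PCDHB9 ran from 0.22 (without LN-521+LN-221 replicate 2) to 0.59 (without LN-521+LN-221 replicate 3). PCDHB12 ran from 0.20 (without LN-521 replicate 2) to 0.62 (without LN-521 replicate 1), with 0.21 without LN-521 replicate 3. The scales parted in PCDHB9 too: its counts were 45.27 to 72.53 while its TPM ran from 0.51 to 2.60, both extremes on the mix.

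No gamma gene was called by edgeR or DESeq2. At an unadjusted p under 0.05 there were 3 of 21 in edgeR, all higher, and 0 in DESeq2, against 14.5% of all genes in edgeR. PCDHGA2 had 0.610, 0.451 and 0.201 CPM on LN-521 alone and 0.963, 0.762 and 0.718 CPM on the mix, without overlap, and the largest fitted log2 fold change of all members, 0.95 ± 0.40 (edgeR adjusted p = 0.268). It rests on 5.25 to 20.27 counts in a library, and was 0.62 without LN-521 replicate 3, its lowest well. Over all alternative fits, limma on TPM among them, the lowest value for PCDHGA2 was 0.095. PCDHGA7 had 0.871, 0.677 and 0.401 CPM on LN-521 alone and 0.819, 0.897 and 1.60 CPM on the mix, overlapping, with 0.78 ± 0.36 (adjusted p = 0.326), or 0.40 without LN-521+LN-221 replicate 3, its highest well. The third was PCDHGB1, named after its values were seen, with 0.48 ± 0.18 (adjusted p = 0.220) and groups apart. The 3 abundant genes had smaller fitted differences: PCDHGB4 had 0.17 ± 0.09 (adjusted p = 0.412) with groups apart in CPM and overlapping in TPM, PCDHGB7 had 0.07 ± 0.10 (adjusted p = 0.831) and PCDHGA11 had 0.01 ± 0.12 (adjusted p = 0.984). Leaving out 1 library gave 0.11 to 0.21 for PCDHGB4, 0.02 to 0.12 for PCDHGB7 and -0.09 to 0.09 for PCDHGA11.

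The genes that work with the clustered protocadherins were taken as 2 lists. Of 25 genes for promoter choice and DNA looping, all tested, none was called by edgeR or DESeq2, against 2.53% of all genes in edgeR. Their median log2 fold change was 0.04. In edgeR 3 of the 25 had an unadjusted p under 0.05, against 14.5% of all genes. The 3 were DNMT3L, REST and SMC3, named after their values were seen, at 0.95 ± 0.33, 0.16 ± 0.05 and 0.14 ± 0.05 (edgeR adjusted p = 0.169, 0.173 and 0.201). CTCF, which brings promoter and enhancer together, had -0.08 ± 0.06 (adjusted p = 0.577), and the cohesin subunit RAD21 had 0.04 ± 0.05 (adjusted p = 0.780). SMCHD1 had 0.03 ± 0.07 (adjusted p = 0.896). DNMT3B, at a mean of 393 TPM on LN-521 alone and 416 TPM on the mix an abundant transcript of these cells, had 0.05 ± 0.05 (adjusted p = 0.733). Leaving out 1 library gave -0.10 to -0.03 for CTCF, 0.02 to 0.05 for RAD21, -0.03 to 0.11 for SMCHD1 and 0.02 to 0.06 for DNMT3B. Of 24 cytoplasmic partners and processing enzymes, all tested, edgeR called 1, PRKCA, which rose, and DESeq2 called 2, against 2.53% of all genes in edgeR. At an unadjusted p under 0.05 there were 6 of 24 in edgeR and 4 in DESeq2, against 14.5% of all genes in edgeR. PRKCA encodes a protein kinase C, a family known to phosphorylate the gamma cytoplasmic domain. It had 1.87 TPM on LN-521 alone and 2.85 TPM on the mix on average, with a log2 fold change of 0.42 ± 0.10 (adjusted p = 0.0235). Its call was lost without LN-521 replicate 3 (adjusted p = 0.113), without LN-521+LN-221 replicate 2 (0.0913) or without LN-521+LN-221 replicate 3 (0.202). The call was also lost with limma on TPM (0.399 to 0.447), which called 11 genes or fewer in the whole table.

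The protocadherins outside the clusters, each a gene of its own with no shared exons, were taken as a list of 11. Of these, 10 were tested and 2 were called by edgeR, PCDH7 and PCDH17, both of which rose, against 2.53% of all genes, and DESeq2 also called 2. At an unadjusted p under 0.05 there were 5 of 10 with each tool, against 14.5% of all genes in edgeR. PCDH7 had a mean of 10.02 TPM on LN-521 alone and 13.99 TPM on the mix and a log2 fold change of 0.44 ± 0.07 (edgeR adjusted p = 0.00173). PCDH17 had 0.820 and 1.33 TPM and 0.79 ± 0.12 (adjusted p = 0.00120). Both calls held in every fit that left out a library. They were lost with limma on TPM (adjusted p from 0.411 to 0.592), which called 11 genes or fewer in the whole table. PCDH1, PCDH8 and PCDH19, the last known for its part in a form of epilepsy, had -0.07 ± 0.06, 0.26 ± 0.12 and -0.008 ± 0.29 (adjusted p = 0.649, 0.314 and 0.994). With a library left out these ran from -0.10 to -0.01 (lowest in size without LN-521 replicate 2), from 0.10 (without LN-521 replicate 3) to 0.35 and from -0.28 to 0.13. The difference in calls between the clustered and the other protocadherins was not tested.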

How the data were processed

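Total RNA of 6 wells of H1 cells was sequenced with a stranded total RNA kit in paired reads of 150 bp, per the labels' protocols. The submitters' processing notes name cutadapt, STAR 2.5.2b, RSEM 1.2.31 and the build hg38. The gene annotation and the use of strand in counting are not given in the sources used here. The authors deposited estimated counts per gene, which need not be whole, and a table of TPM values, scaled for transcript length and to a common total per library. Library totals were 20606494 to 26836726 estimated counts. The common biological coefficient of variation was 7.03%.

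Ensembl IDs received symbols from a name table (68.0% of IDs) and gene types, exons and coordinates from GENCODE 29 (93.8%). Counts were rounded, filtered with edgeR's filterByExpr (minimum count 10), scaled by TMM and tested with edgeR's quasi-likelihood method (robust, version 4.0.16, R 4.3.3) on all 6 libraries, with no block for replicate number. Adjustment was by Benjamini-Hochberg over 17608 genes with a threshold of 0.05. CPM are rounded counts over TMM-scaled library sizes, and cluster sums use unrounded counts. SE is the absolute log2 fold change over the square root of F. Alternatives were RLE or library-size scaling, other filters, unrounded counts, DESeq2 1.42.0, limma 3.58.1 on log2(TPM + 1) and log2(TPM + 0.1), thresholds of 0.01 and 0.1, a replicate block and leaving out each library. The scripts were tested on simulated data. All pairs of libraries differed by more than sampling noise (chi-square per degree of freedom at least 2.76), and the sample sheet lists 1 sequencing batch.

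Genes named with values are every member called, the 5 C-type genes, the 3 most abundant members of each cluster, the 3 with the largest absolute log2 fold change in each cluster, list genes called, and CTCF, RAD21, SMCHD1, DNMT3B, PCDH1, PCDH8 and PCDH19. Any other was named after its values were seen. Members, lists and this rule were chosen with earlier results of these data known.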

Additional observations from a re-analysis of the deposited data

How the results depend on the processing

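PCDHAC2 was the 1 member called with RLE, library-size scaling, the 1 CPM filter, all genes with a count, unrounded counts and DESeq2. No member was called with limma on log2(TPM + 1), with or without filter, or on log2(TPM + 0.1), 0 at a threshold of 0.01, and 0 to 4 when a library was left out. All gene calls moved from 446 to 718 without filter, to 11, 10 and 1 with limma on log2(TPM + 1), on log2(TPM + 0.1) and on log2(TPM + 1) without filter, to 221 and 725 at thresholds of 0.01 and 0.1, and to 194 to 1179 with a library left out. The members' median log2 fold change was 0.0625 and 0.0622 with limma on log2(TPM + 1) with and without filter and 0.0768 to 0.146 with a library left out. In these limma fits the medians over all genes were 0.0270 with and 0.0142 without filter. The log2 ratios of the 3 cluster sums kept their sign with RLE, with library-size scaling, as sums of rounded counts, as summed TPM and with a library left out, at -0.0894 to -0.0124 (alpha), 0.113 to 0.165 (beta) and 0.0772 to 0.136 (gamma) in the last case. Unscaled sums of counts gave -0.0229 (beta) and -0.0519 (gamma), opposite in sign. For alpha they gave -0.216, the same sign, with groups just apart (1709 to 1998.63 on LN-521 alone and 1487.08 to 1708.96 on the mix). Added after seeing the data were sums of rounded counts, the alpha sum without PCDHAC2 (-0.0105 in CPM, 0.0414 in TPM) and a tolerance of 0.05 for whole counts, which gave 74.8% non-whole member values.

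Members near 0 changed sign. PCDHA11 had -0.140, -0.202 and -0.140 and PCDHA6 0.0767, 0.115 and 0.0767 with limma on log2(TPM + 1), on log2(TPM + 0.1) and on log2(TPM + 1) without filter, PCDHGA11 had -0.000685 without filter, and PCDHGC4 had 0.000859 unrounded and 0.0831, 0.237 and 0.0831 with the 3 limma fits. With a library left out, PCDHA11 ran from -0.0301 to 0.285, PCDHA6 from -0.489 to 0.0239, PCDHGA11 from -0.0861 to 0.0934, PCDHGC4 from -0.196 to 0.130, PCDH19 from -0.282 to 0.134 and SMCHD1 from -0.0260 to 0.106. The cause was not tested. In the whole table limma on TPM called 11 genes or fewer.

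Over all genes tested, deviations of wells with the same replicate number correlated at 0.0473, -0.0223 and 0.00902. Whether the numbers pair the wells for part of the genes was not tested. With the number as a block, 1 member and 646 genes were called, against 1 member and 446 genes without it. In the blocked fit PCDHAC2 had -0.804 (edgeR adjusted p = 0.00229) and PCDHGC4 0.0163. Members had a median SE of 0.21 on the log2 scale, against 0.10 over all genes.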
